A study of Zea mays with 8 samples.

Results

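The maize heat shock genes described here, in every library that lists them, are hsp101 (GRMZM2G360681), HSP90-1 (GRMZM2G024668), hsp82 (GRMZM5G833699) and hsbp1 (GRMZM2G085924). They were chosen by gene ID, 4 of the 28667 gene IDs in the deposited tables, and the choice was made with drought results of these data known. Their drought changes are therefore given as a description, without a test. All 4 are in the ovary table. In the leaf hsp101, HSP90-1 and hsbp1 were analysed, and hsp82 was not.

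Heat shock proteins are chaperones. HSP100 proteins such as HSP101 pull single chains out of protein aggregates, and HSP101 is needed for heat tolerance in maize and Arabidopsis. HSP90 proteins mature kinases, receptors and other clients and, in Arabidopsis as in animals, restrain heat shock factors, the transcription factors that switch on chaperone genes. Heat shock factor binding proteins are small coiled-coil proteins that bind heat shock factors and damp the response. In maize the emp2 gene encodes one of them, and its loss raises heat shock transcripts in kernels and stops early embryo development.

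The plants were maize of the inbred line B73, which all groups share, grown in a greenhouse to silk emergence. The groups were ovary under drought, ovary of well-watered plants, basal leaf meristem of the 3 youngest leaves under drought, and the same meristem of well-watered plants. Drought plants had irrigation withheld for 2 to 3 days before hand pollination, and tissue was taken 24 hours after pollination (1 day). Each group has 2 libraries of polyadenylated RNA. The protocol names them as biological replicates, the series text speaks of 1 replicate for each condition, and neither says that they came from separate plants, so spread and p-values describe these 8 libraries and may be technical.

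Levels are in FPKM, a fragment count corrected for gene length and library size. The depth of the libraries is unknown, since no counts were used, so no counting error can be given. Summed FPKM lay between 661161 and 843595 in 7 libraries. In well-watered ovary library 2 the sum was 9212839, of which 2 gene IDs took all but 733453. Libraries of 1 group correlated at 0.965 to 0.988 (Pearson, log2(FPKM + 1), over genes, which are no replicates). Between conditions the correlation was 0.722 to 0.776 in the ovary and 0.908 to 0.95 in the leaf. The ovary markers ZAG1, zag2 and ZMM2, floral MADS-box genes with 4 IDs in the ovary table, summed to 247.6 and 306.6 FPKM in drought ovaries, against 396.1 and 336.9 FPKM in well-watered ovaries. Of these IDs, limma called ZAG1 and zag2 lower under drought in the ovary (adjusted p = 0.0245 and 0.0421). It called zmm2 (GRMZM2G492156) higher, at 1.43 and 1.66 FPKM under drought (adjusted p = 0.0285), and did not call ZMM2 (GRMZM2G359952). In the leaf ZAG1, the 1 marker analysed there, was at 0.394 and 0.238 FPKM under drought, against 0.447 and 0.293 FPKM in well-watered plants. The leaf markers summed to 8463 to 11340 FPKM in the leaf, although the ligule gene lg1 among them was at 0.681 to 1.83 FPKM there and at 4.17 to 7.33 FPKM in the ovary. The drought markers dhn1, dhn2, mlg3 and vp14 summed to 3211 and 2678 FPKM in drought ovaries, against 98.1 and 111.6 FPKM in well-watered ovaries. Most of that was dhn1, which was not called in the leaf (limma adjusted p = 0.141). The marker vp14 was not called in either tissue, and dhn2 was called higher in both. In the leaf, where mlg3 was not analysed, the sum was 446.6 and 535.9 FPKM under drought, against 181.4 and 191.1 FPKM in well-watered plants.

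The gene hsbp1 was far lower in drought than in well-watered ovaries and was among the most abundant transcripts of the leaf meristem. It stood at 2.94 and 2.91 FPKM in drought ovaries, against 277 and 305 FPKM in well-watered ovaries. Both drought libraries lay below both controls, which by any margin held for 42.2% of all genes tested in the ovary. The mean of the well-watered ovaries was 99.6 times that of the drought ovaries. The log2 change was -6.22 ± 0.15 (SE of the limma fit on log2(FPKM + 1), n = 2 per condition), the fall at rank 50 of the 23770 genes tested in the ovary. Fewer cells carrying a transcript and less of it per cell cannot be told apart in tissue samples. In the leaf meristem hsbp1 stood at 1318 and 1440 FPKM under drought, against 1191 and 797 FPKM in well-watered plants, a log2 change of 0.50 ± 0.27. The leaf groups did not overlap, with drought above both controls as for 23.5% of all genes tested in the leaf, but the well-watered libraries lay further apart than the means of the conditions. In the ovary 37.8% of all genes were above both controls and in the leaf 35.7% were below both. The 4 genes were chosen on these contrasts, so nothing is read from where they stand among all genes. Without well-watered leaf library 1 the change was 0.79, and without library 2 it was 0.21. In the leaf the gene ranked between 53 and 89 from the top of 25873 listed genes. In ovaries it ranked 18385 and 18696 of 26380 under drought, against 254 and 265 in well-watered plants.

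**Figure D1:**
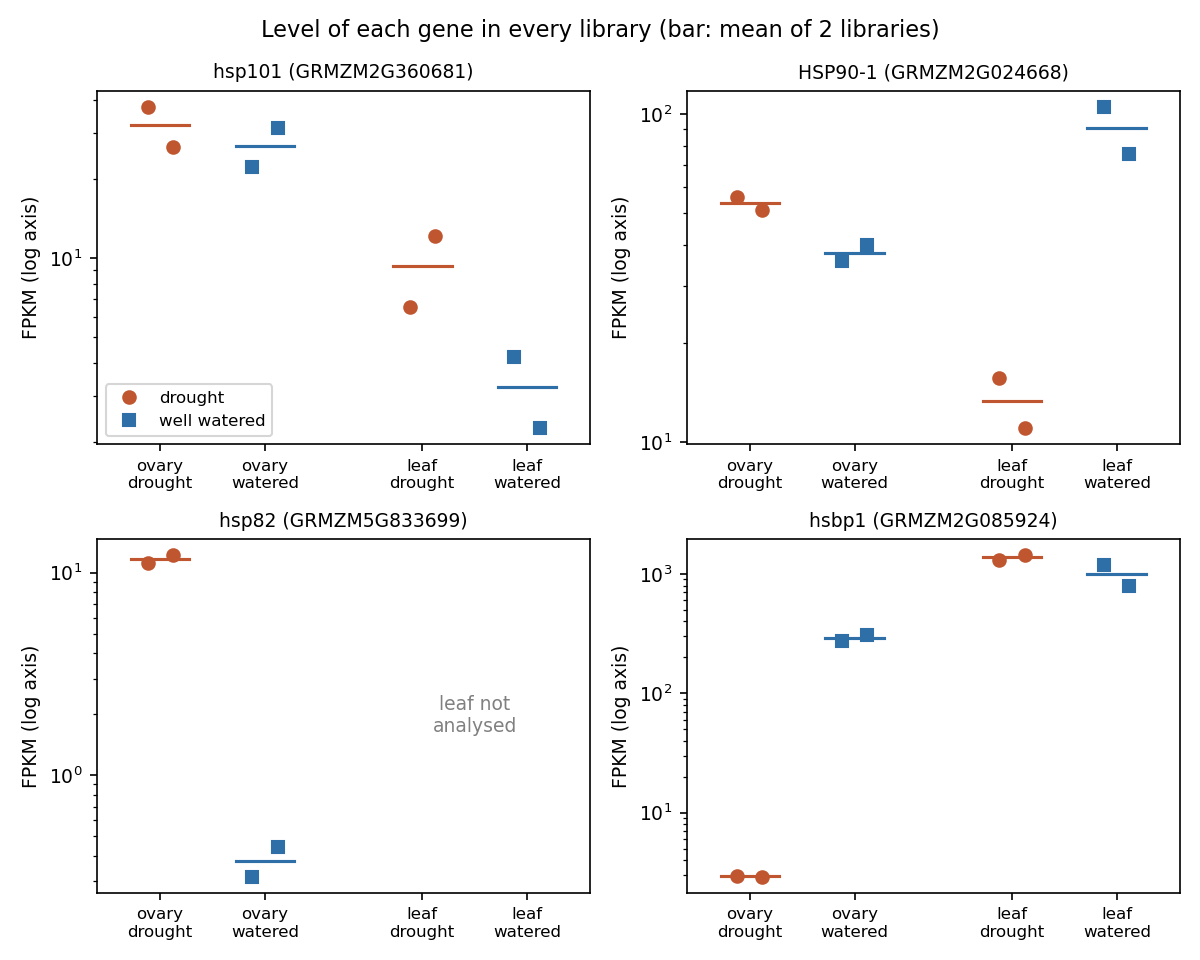
FPKM of hsp101, HSP90-1, hsp82 and hsbp1 on log axes in each library, with drought left of well watered in each tissue, points for single libraries and bars for the mean of 2 libraries. The hsbp1 level is 2.91 and 2.94 FPKM in drought ovaries and at least 277 FPKM in the other 6 libraries, and HSP90-1 is lowest in drought leaf.

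The reference gives GRMZM2G085924 the names hsbp1 and SBP1 and no product. The name hsbp1 is also given to emp2 (GRMZM2G039155), so the role of GRMZM2G085924 rests on a name that both IDs carry. Reads that fit both could have been split between them in the authors' processing, which was not tested. The emp2 gene stood at 17.1 and 18.8 FPKM in drought ovaries, against 64.0 and 51.7 FPKM in well-watered ovaries. It fell, with a log2 change of -1.63 ± 0.17 and a limma adjusted p of 0.00086. In the leaf meristem emp2 stood at 42.8 and 46.6 FPKM under drought and at 44.4 and 44.5 FPKM in well-watered plants (log2 change 0.01 ± 0.12, limma adjusted p = 0.975). The change of emp2 in the ovary minus that in the leaf was -1.63 ± 0.20, and this difference passed limma over all 8 libraries (adjusted p = 0.000915, and between 0.000617 and 0.00678 over the alternatives tried). Per length, hsbp1 was at 0.172 and 0.154 times the level of emp2 in drought ovaries, against 4.32 and 5.91 times in well-watered ovaries. In the leaf that ratio was 30.8 and 30.9 under drought, against 26.8 and 17.9 in well-watered plants.

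Other transcripts moved with hsbp1 in the ovary. The summed level of 3 marker IDs of lignified vascular tissue was 46.5 and 80.2 FPKM in drought ovaries, against 979.7 and 1821 FPKM in well-watered ovaries. The phenylalanine ammonia-lyase gene pal3, not analysed in the leaf, made up most of that sum. The 7 photosynthesis and ligule marker IDs summed to 70.5 and 70.0 FPKM in drought ovaries, against 332.5 and 616.2 FPKM in well-watered ovaries. In well-watered ovaries the rbcS IDs and lhcb3 made up most of that sum. Among the others, lg1 and Ppdk1 were not called by limma in the ovary, and pep1 (GRMZM2G083841) lay below the filter. Of all genes tested in the ovary, 29.5% fell by limma. The drought ovary libraries list lhcb3 and the laccase gene lac4 at 0. The gene tbp2, named for a general transcription factor, is at 0 in both drought leaf libraries. Whether a listed 0 is a failed estimate was not tested. BM1, the vascular marker ID besides lac4 that was analysed in both tissues, stood at 3.18 and 2.45 FPKM in drought ovaries, against 46.7 and 54.7 FPKM in well-watered ovaries. In the leaf it stood at 98.4 and 99.0 FPKM under drought, against 126 and 81.7 FPKM in well-watered plants. The 4 pollen marker IDs were not analysed here. The part of other tissues in the hsbp1 level was not tested.

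The HSP90 genes differed in direction. HSP90-1 was lower in drought leaf meristem, at 15.7 and 11.01 FPKM, against 106 and 75.8 FPKM in well-watered leaf meristem. Both drought libraries lay below both controls, the log2 change was -2.68 ± 0.25 (SE, n = 2 per condition), and the fall had rank 117 of 22418 genes tested in the leaf. In the ovary HSP90-1 stood at 56.0 and 51.1 FPKM under drought, against 35.7 and 39.9 FPKM in well-watered plants, a log2 change of 0.49 ± 0.15 in the other direction. The groups did not overlap in either tissue. Of all genes tested, 35.7% lay below both controls in the leaf and 37.8% above both in the ovary. From high to low the group means ran from well-watered leaf through drought ovary and well-watered ovary to drought leaf, with no overlap between neighbours. Levels in both tissues come from separate tables, and any scaling between them is unknown, so this order across tissues was not tested.

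The gene hsp82 was clearly present in drought ovaries and nearly silent in well-watered ones. It stood at 11.2 and 12.2 FPKM in drought ovaries, against 0.316 and 0.441 FPKM in well-watered ovaries, and the mean was 30.9 times higher under drought. Within a library it ranked higher than 55.7% and 57.0% of listed genes under drought, against 4.08% and 7.44% in well-watered ovaries. The log2 change on the log2(FPKM + 1) scale was 3.20 ± 0.18, which understates the change of a gene that low in controls, and was 4.64 with a pseudocount of 0.1 FPKM. Among rises it had rank 420 of 23770. It passed the filter of a mean of 1 FPKM only through the drought libraries, so nothing is read from that rank.

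HSP90-2 (GRMZM2G012631), the third HSP90 gene matched by name, was the most abundant of them in every library. It stood at 156 and 156 FPKM in drought ovaries and at 281 and 227 FPKM in well-watered ovaries. It fell there, with a log2 change of -0.69 ± 0.17 and a limma adjusted p of 0.0186, a call lost with quantile normalization (log2 change -0.49) and without drought library 1, drought library 2 or well-watered library 1. In the leaf its log2 change was -0.28 ± 0.16 (limma adjusted p = 0.357). Of the summed FPKM of all 3 genes, HSP90-1 made up 25.1% and 23.3% in drought ovaries against 11.2% and 14.9% in well-watered ovaries. The share of hsp82 was 5.02% and 5.56% in drought ovaries against 0.0995% and 0.165% in well-watered ovaries. In the leaf HSP90-1 made up 8.66% and 6.15% of its sum with HSP90-2 under drought, against 31.8% and 29.3% in well-watered plants. The HSP90 sum was 223 and 220 FPKM in drought ovaries against 317 and 268 FPKM in well-watered ovaries. HSP90 genes resemble each other, and reads that fit several of them could have been split in the authors' processing, which was not tested.

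**Figure D2:**
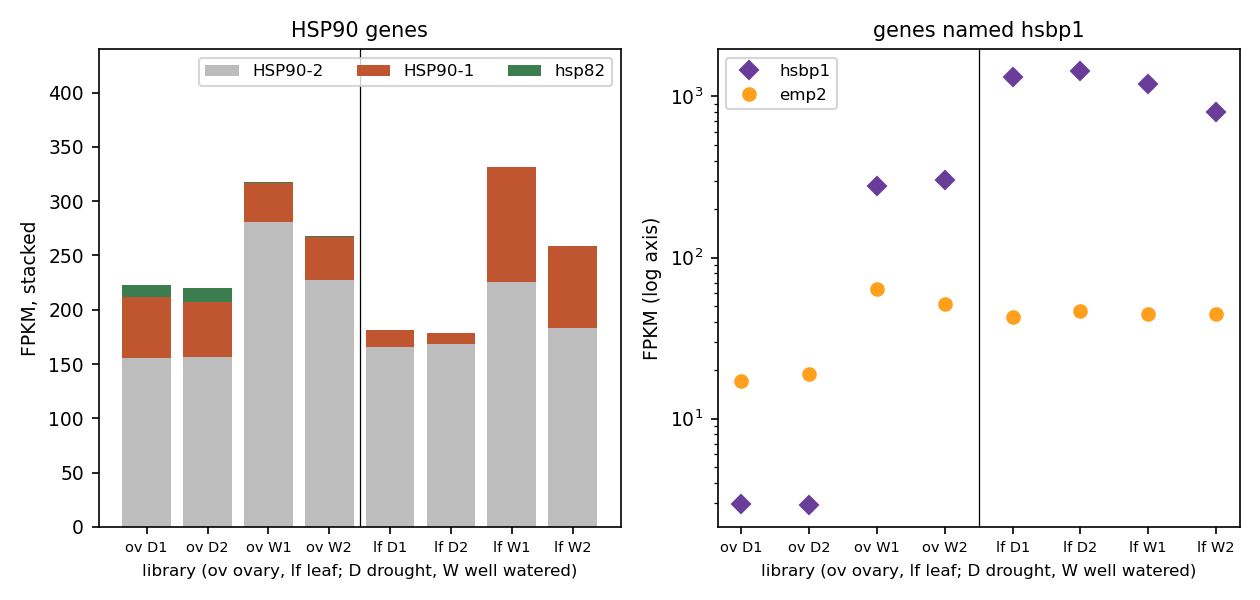
Left, stacked FPKM of the HSP90 genes in each library; right, FPKM of hsbp1 and emp2 on a log axis. Drought libraries stand left of well-watered ones in each tissue. HSP90-1 narrows in drought leaf and widens in drought ovary, and hsbp1 lies below emp2 in the drought ovaries and above it in the other libraries.

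The disaggregase gene hsp101 was higher in ovary than in leaf libraries. It stood at 37.7 and 26.4 FPKM in drought ovaries and at 22.3 and 31.2 FPKM in well-watered ovaries. The groups overlapped, and the log2 change of 0.25 ± 0.25 was about as large as its error. In the leaf meristem it stood at 6.54 and 12.2 FPKM under drought and at 4.20 and 2.26 FPKM in well-watered plants. Both drought libraries lay above both controls, as for 23.5% of all genes tested in the leaf. The log2 change was 1.28 ± 0.38, or 0.87 without drought library 2 and 1.68 without drought library 1. Across the groups the order was drought ovary, well-watered ovary, drought leaf and well-watered leaf, of which the first pair does not differ beyond its spread. As for HSP90-1, any scaling between the tissues is unknown, so the difference between ovary and leaf levels was not tested.

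In the leaf, hsp101 shared its highest and lowest libraries with other heat shock genes, an observation made after the values were seen. It was highest in drought library 2 and lowest in well-watered library 2. Of the 8 HSP70 and small HSP genes tested there, hsp101 left out, 6 shared both extremes, namely Hsp70 and all 5 small HSP genes. The libraries between could differ in order, as for hsp22 (drought library 1 at 5.18 FPKM, well-watered library 1 at 7.29 FPKM). Of all genes tested in the leaf, 16.7% had both extremes. The classes were picked after these extremes were noticed, so these counts describe the 4 libraries and support nothing further. The HSP70 genes hsp70-4 and hsp70 (GRMZM5G802801) were highest in well-watered library 2. The small HSPs bind unfolding proteins without using ATP. HSP18 (GRMZM2G404249, also named hsp18a) stood at 17.6 and 24.6 FPKM under drought and at 6.13 and 2.65 FPKM in well-watered leaf. Its log2 change was 2.10 ± 0.38 (limma adjusted p = 0.0795), the lowest adjusted p of the heat shock genes in the leaf other than the 4 described above. It was named after the values were seen. It was called in 3 alternatives, with an adjusted p of 0.029 without well-watered library 1, 0.0296 in a joint fit of 8 libraries and 0.0356 with crossed replicate numbers. Well-watered library 2 was also the control less alike to drought across all genes, at correlations of 0.924 and 0.908 with the drought libraries, against 0.95 and 0.941 for library 1.

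**Figure D3:**
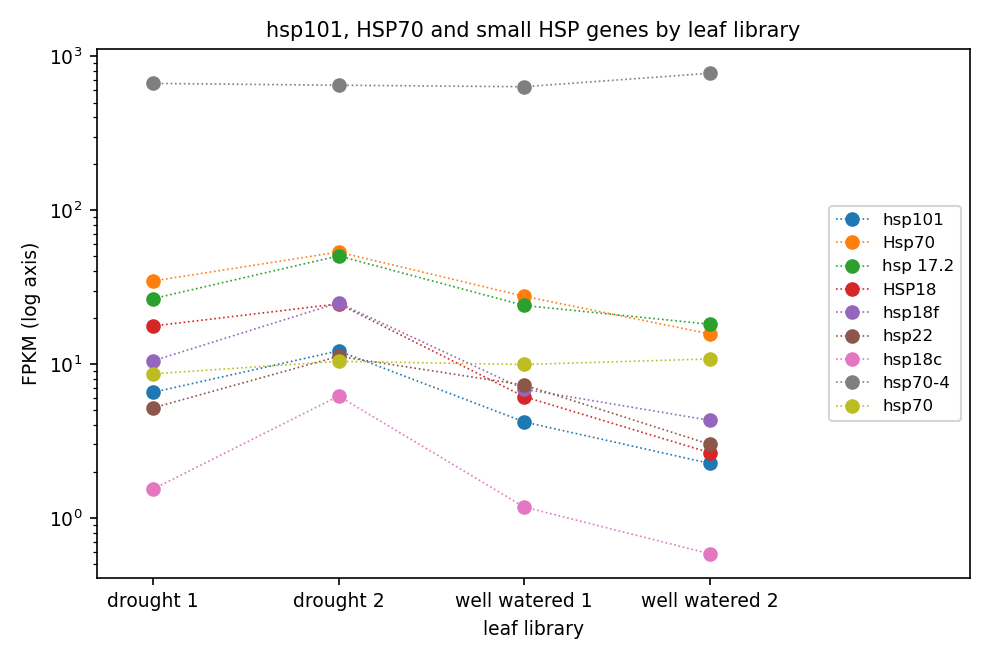
FPKM on a log axis of hsp101, 3 HSP70 genes and 5 small HSP genes in the 4 leaf libraries; dotted lines join the values of a gene. All but hsp70-4 and hsp70 are highest in drought library 2 and lowest in well-watered library 2, and the classes were picked after this was noticed.

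Heat shock factors, chaperones and co-chaperones matched by name gave 39 further gene IDs in the ovary table, which stand for 36 reference genes. In drought ovaries, 9 of the 39 rose and 19 fell by limma at an adjusted p under 0.05, where the 4 genes above are left out. These are 23.1% and 48.7% of the list, beside 23.6% and 29.5% of all genes tested. The median log2 change of the list was -0.56, and that of all genes was -0.05. Quantile normalization moves the median of all genes by 0.11 and gives 10 rising and 15 falling. Counts of all genes tested in the ovary dropped whenever a library was left out. Such drops, here and in the classes below, are therefore no trait particular to the list. The list counts rest on both libraries of each condition. They were 3 up and 12 down without drought library 1, 3 and 9 without drought library 2, 5 and 9 without well-watered library 1, and 5 and 10 without well-watered library 2. Of the 28 calls, 10 held in every alternative in which the gene could be fitted, namely crt2, pdi2, bip1, bip2, pdi5, pdi7, emp2, HSF2, Hsp70 and Hsf05 (GRMZM2G133023). Of these, bip2, pdi5 and pdi7 were named after their values were seen.

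Chaperones and foldases of the endoplasmic reticulum gave most of the falls. Of 15 such IDs, 10 fell and none rose in the ovary, beside 29.5% falling and 23.6% rising of all genes. With a library left out, 7 fell without drought library 1 or well-watered library 2, and 6 without drought library 2 or well-watered library 1. The calreticulin gene crt2 (GRMZM2G358059), a calcium-binding chaperone, stood at 22.6 and 20.0 FPKM in drought ovaries, against 321 and 270 FPKM in well-watered ovaries (log2 change -3.73 ± 0.16, limma adjusted p = 6.63e-05). The protein disulfide isomerase gene pdi2 (GRMZM2G163421) stood at 6.10 and 6.34 FPKM in drought ovaries, against 69.4 and 80.8 FPKM in well-watered ovaries, and fell by 3.39 on the log2 scale (limma adjusted p = 7.67e-05). The HSP70 of that compartment, bip1 (GRMZM2G114793), stood at 20.1 and 22.5 FPKM in drought ovaries, against 123 and 106 FPKM in well-watered ovaries, and fell by 2.37 (limma adjusted p = 0.000217). All 3 HSP60 chaperonin IDs, which serve mitochondria, fell in the ovary. They are CPN60I, with 2 IDs of 1 reference gene (GRMZM2G111477, -1.53, and GRMZM2G458208, -1.19), and CPN60II (GRMZM2G416120, -1.19). Each of these 3 calls was lost on leaving out drought library 2 or either well-watered library, and that of GRMZM2G458208 also without drought library 1.

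Small HSP genes were called in both directions in the ovary, 2 each way of 5 tested, beside 23.6% and 29.5% of all genes. The small HSP gene hsp18c (GRMZM2G034157) rose by 1.17, and the gene named hsp 17.2 (GRMZM2G158232) rose by 1.59, while hsp22 (GRMZM2G007729) fell by 1.69 and hsp18f (GRMZM2G083810) fell by 0.92 (limma adjusted p between 0.00283 and 0.0323). Each of these calls was lost on leaving out some library. That was drought library 1 or 2 for hsp 17.2, drought library 1 or 2 or well-watered library 1 for hsp18c, drought library 1 or 2 or well-watered library 2 for hsp18f, and well-watered library 1 or 2 for hsp22. Those of hsp18c and hsp18f were also lost in the joint fit. Hsp70 (GRMZM2G310431) stood at 236 and 217 FPKM in drought ovaries, against 91.9 and 104 FPKM in well-watered ovaries, and rose by 1.21 ± 0.16 (limma adjusted p = 0.00176). The other 2 HSP70 genes were not called. SGT1 (GRMZM2G149704), a partner of HSP90 in immune receptor maturation, rose by 1.32 ± 0.20 (limma adjusted p = 0.00326, and 0.065 without well-watered library 2, where the call was lost).

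Of 10 heat shock factor IDs tested in the ovary, 5 rose and 2 fell, beside 23.6% and 29.5% of all genes. Most of these calls need all 4 libraries: 1 rose and 1 fell without drought library 1 or without drought library 2, and 2 rose and 1 fell without well-watered library 1 or without well-watered library 2. Hsf05 had the largest rise under 1 of its IDs, GRMZM2G133023, at 159 and 203 FPKM in drought ovaries, against 11.1 and 12.7 FPKM in well-watered ovaries (log2 change 3.81 ± 0.18, limma adjusted p = 7.67e-05). The other ID of the same reference gene, GRMZM2G132971, stood at 61.2 and 52.0 FPKM in drought ovaries and at 44.1 and 50.5 FPKM in well-watered ovaries (log2 change 0.25 ± 0.16, limma adjusted p = 0.241). In the leaf table both IDs carry the same 4 values, and 1146 IDs of that table share all 4 values with another ID, so the leaf does not separate them. None of hsp101, HSP90-1, hsp82 and hsbp1 shares its values with another ID. Hsf01 (GRMZM2G165998) rose by 0.86 and Hsf12 (GRMZM2G384339) by 0.77, while HSF2 (GRMZM2G088242) fell by 1.90 and HSF6 (GRMZM2G059851) by 0.56. The call of HSF6 was lost in 9 of 12 alternatives, and those of Hsf01 and Hsf12 on leaving out drought library 1, drought library 2 or well-watered library 2 (Hsf12 also without well-watered library 1).

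**Figure D4:**
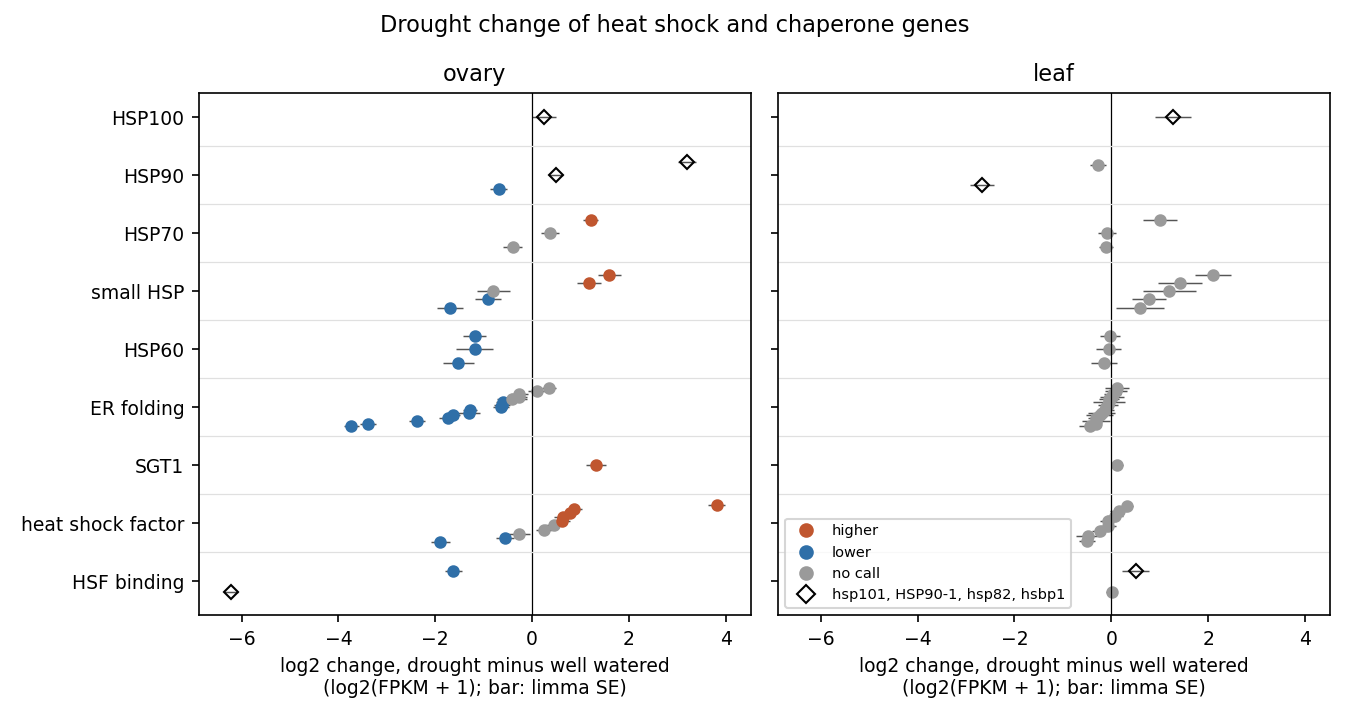
Drought log2 change of each heat shock and chaperone gene ID in ovary and leaf on the log2(FPKM + 1) scale, with the limma SE as a bar, grouped by class. Filled points are coloured by the limma call at an adjusted p under 0.05 and open diamonds are the 4 genes described without a test. In the leaf no filled point is called, and in the ovary 9 are higher and 19 lower.

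In the leaf meristem limma called none of the 37 listed gene IDs tested, which stand for 34 reference genes. That is 0 rising and 0 falling, beside 2.35% rising and 0.906% falling of all genes. At an unadjusted p under 0.05, 4 were higher (HSP18, hsp18f, Hsp70 and HSF29) and 2 lower (HSF6 and pdi11), of which HSF29 and pdi11 were named after their values were seen, beside 10.8% and 11.6% of all genes. The median log2 change was -0.06 for the list and -0.06 for all genes. The change in the ovary differed from that in the leaf for 17 of 37 list gene IDs. It was higher in the ovary for 4 and lower for 13, beside 23.0% and 24.7% of the genes tested in both tissues. The count of 4 was 2 without ovary drought library 1, ovary drought library 2, ovary well-watered library 2 or leaf drought library 1, and the count of 13 was 8 without ovary drought library 2.

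The genes whose levels followed each of the 4 most closely were found by the Pearson correlation of log2(FPKM + 1) over all 8 libraries, among the 1899 genes that have a name and average 1 FPKM or more in each table. With so few libraries, in groups of 2 that share tissue and condition, these values describe and test nothing. The profile of hsbp1 was nearest to those of rf2c (r = 0.9986), WHY1 (0.9972) and BM1 (0.996). Of these, rf2c stood at 0.548 and 0.686 FPKM in drought ovaries, against 25.5 and 26.4 FPKM in well-watered ovaries, and between 56.7 and 79.3 FPKM in all leaf libraries. A correlation ignores the size of a change. WHY1 stood at 7.66 and 8.34 FPKM in drought ovaries, against 18.0 and 17.5 FPKM in well-watered ovaries, a far smaller fall than that of hsbp1. BM1, of lignin synthesis, is also 1 of the vascular markers above. For HSP90-1 the nearest were bZIP83 (0.9256), PRR59 (0.8735) and tbp2 (0.8608), of which bZIP83 and tbp2 were listed at 0 in both drought leaf libraries. For hsp101 they were ALDH12 (0.9871), cc4 (0.9808) and m28 (0.9738). The profile of hsp82 could be compared over the 4 ovary libraries only, where PP2C2 (0.9999), sig6 (0.9999) and SnRK2.1 (0.9998) were nearest.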

How the data were processed

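Polyadenylated RNA of 8 libraries was sequenced. The authors deposited FPKM, with 1 table for the ovary and 1 for the leaf. The submitters' processing notes list the tools CASAVA 1.8, TopHat 1.2.0 and Cufflinks 1.0.2. What each did, the genome build and annotation, the use of strand and any scaling between libraries are not stated, and for that reason no gene positions appear. Groups and replicate numbers come from the sample titles.

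IDs were matched through synonyms of the RefSeq annotation of assembly Zm-B73-REFERENCE-NAM-5.0 (16218 of 26380 ovary IDs, 16109 of 25873 leaf IDs). Heat shock genes were matched by name alone. The 4 genes and the lists were chosen with earlier results of these data known. The 4 genes are left out of list counts. Named are the 4, up to 3 called genes each way per class and tissue, and the 3 most alike to each.

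Within each tissue, limma 3.58.1 (R 4.3.3, eBayes with trend) was run on log2(FPKM + 1) for genes that averaged 1 FPKM or more (23770 ovary, 22418 leaf), with Benjamini-Hochberg adjustment over all of them. All 4 genes passed that filter where listed, hsp82 only through its drought libraries. The residual degrees of freedom are 2 per tissue. The difference between tissues was fitted over 8 libraries. Alternatives were a pseudocount of 0.1, other filters, scalings and variance models, a joint fit, replicate blocks and each library left out.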

Additional observations from a re-analysis of the deposited data

Results flagged for a closer look

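A difference in drought change between the tissues singled out the results below, whose genes were named after their values were seen. The values are the drought log2 change in the ovary minus that in the leaf meristem. For hsbp1 it was -6.72 and for HSP90-1 it was 3.17. In each of these, both drought libraries lay beyond both controls in opposite directions in the 2 tissues. In the ovary 37.8% of all genes lay above both controls and 42.2% below, and in the leaf 23.5% and 35.7%. The leaf change of hsbp1 was 0.50 ± 0.27, with well-watered libraries further apart than the means of the conditions. The difference was not tested for either gene, since both were chosen on these contrasts. The others come from limma over all 8 libraries at an adjusted p under 0.05. Of 37 list gene IDs, 4 passed higher and 13 lower, beside 23.0% and 24.7% of all genes tested in both tissues. Such a difference was therefore common among all genes. Among genes of the endoplasmic reticulum the difference was -3.41 for crt2, -3.16 for pdi2, -1.94 for bip1, -1.67 for pdi5, -1.44 for bip2, -1.39 for pdi7 and -1.32 for pdi8. Among HSP60 genes it was -1.47 for CPN60I (GRMZM2G111477) and -1.16 for CPN60II. Among small HSP genes it was -2.90 for HSP18, -2.33 for hsp18f and -2.28 for hsp22. For emp2 it was -1.63. It was positive for Hsf05 (GRMZM2G133023), at 3.88, SGT1, at 1.21, Hsf01, at 0.79, and hsfb, at 0.67. In the leaf, the values of Hsf05 are those of another ID as well. Of these 17 tested differences, 10 held in every alternative in which they could be fitted, and the call of hsfb was lost in 9 of 15.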

How the results depend on the processing

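No change of the 4 genes took the other sign in any alternative. Of these, 2 moved by more than the spread between replicates: hsp82 in the ovary was 4.64 with a pseudocount of 0.1 FPKM, and hsbp1 in the ovary was -6.59 with that pseudocount and -6.002 with quantile normalization. Leaving out 1 library each in turn gave, in the ovary, 0.0015 to 0.50 for hsp101, 0.41 to 0.57 for HSP90-1, 3.14 to 3.27 for hsp82 and -6.29 to -6.15 for hsbp1. In the leaf it gave 0.87 to 1.68 for hsp101, -2.91 to -2.44 for HSP90-1 and 0.21 to 0.79 for hsbp1. The list counts in the ovary were then 3 to 5 rising and 9 to 12 falling, and in the leaf 0 to 1 rising and 0 falling. The counts of list genes that differ between tissues were 2 to 5 higher and 8 to 15 lower. These fits leave 1 library of a condition, and that lone library is assumed to vary like the others.

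The count of list genes rising in the leaf was 1 (HSP18) in the joint fit of 8 libraries and 1 with the crossed replicate block. With the replicate number as a block (the replicate block), the list counts were 9 and 18 in the ovary, 0 and 0 in the leaf, and 2 higher and 13 lower in the difference between tissues. The deviations of same-numbered libraries correlated at 0.112 in the ovary and -0.175 in the leaf across genes. The numbers are not known to pair libraries, so the crossed pairing was added after seeing the data, and it gave 8 and 19 calls in the ovary. Among all genes, the block took the leaf from 527 rising and 203 falling to 230 and 121, and the joint fit gave 327 falling. With a leaf library left out these counts ran from 0 to 1509 and from 0 to 479. With an ovary library left out they ran from 2257 to 3791 rising and from 3543 to 4804 falling, against 5614 and 7004. All genes with a higher change in the ovary numbered 4668, or 3100 without leaf drought library 2. The joint fit could not be made for hsp82, which is in 1 table only. Depth is unknown, so the counting error of hsp82 near 0.3 FPKM in well-watered ovaries cannot be given.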
